A study of Cucumis sativus with 8 samples.

Results

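Of the 17783 cucumber genes with deposited values, 4 genes of the vascular tissue are described here, chosen by identifier. They are *APL* (Csa6G135460) and *PP2-B12* (Csa3G132020), both phloem genes, *IRX6* (Csa1G015700), a cell wall gene, and *CCR1* (Csa3G717370), a lignin gene. The study printed these genes as examples of genes changed in the vein of these same libraries, so their calls in vein are not independent evidence. RNA was sequenced from midveins of the youngest expanded leaves and from fruits 4 d before anthesis. The plants were *CsIVP*-RNAi plants, which carry an RNAi construct against the bHLH transcription factor gene *CsIVP*, and wild type (WT), both in the inbred line R1461, which the sample labels also write as 1461. The sample labels name the construct *CsIND*-RNAi, and the study's own text calls the gene *CsIVP* and the sequenced line R5. The 4 groups are RNAi vein, WT vein, RNAi fruit and WT fruit, with 2 libraries each, all RNAi libraries coming from 1 transgenic line, so that an effect of the construct and one of that line cannot be told apart.

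The vein of a leaf holds phloem, which carries sugars and signals through living sieve elements, and xylem, which carries water through dead vessels with thick walls. APL is a MYB coiled-coil transcription factor that phloem cells need for their identity in *Arabidopsis*, and PP2 proteins are phloem lectins, of which the B type in *Arabidopsis* carries an F-box. Vessel and fibre walls are built from cellulose made by secondary wall cellulose synthases with the help of the COBRA-like protein IRX6 (COBL4 in *Arabidopsis*), and are then filled with lignin. Cinnamoyl-CoA reductase (CCR) makes the first step that is particular to lignin monomers, downstream of phenylalanine ammonia-lyase (PAL). The same phenylpropanoid enzymes also serve defence compounds.

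The *CCR1* oligonucleotides were designed to test whether the CsIVP protein binds this gene, and are shown because the protein class of *CsIVP* is known for binding the E-box CANNTG. The capitals mark the E-box CACTTG, or CAAGTG on the lower strand.
EMSA probe, upper strand: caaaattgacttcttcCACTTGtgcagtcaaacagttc
EMSA probe, lower strand: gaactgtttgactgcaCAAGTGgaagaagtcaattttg
One-hybrid oligonucleotide, upper strand: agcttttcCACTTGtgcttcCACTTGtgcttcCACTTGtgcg
The probe for the mobility-shift assay is 38 bases long, and its E-box starts at base 17 from the 5′ end. The oligonucleotide for the yeast one-hybrid assay is 42 bases long and holds 3 copies of the unit ttcCACTTGtgc, which is the E-box of the probe with 3 bases on each side. The letters are a description and not a measure of binding, and the outcome of these assays was not analysed here. None of the 23999 genes of the reference table given carries an identifier of the files, so no position, promoter or protein of the 4 genes is given.

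Values are RPM, in which the reads of a gene are scaled by the total of reads counted on genes in its library. Each library holds 18088985 to 22979345 such reads, so that 1 read is worth 0.0435 to 0.0553 RPM, and a gene with 0 reads may still reach 0.131 to 0.166 RPM (the worth of 3 reads, for counting error only). The labels could not be checked on the targeted gene. No vein library held a read of *CsIVP* (Csa6G483450), and in fruit it had 42.3 and 52.1 RPM in RNAi and 50.0 and 38.3 RPM in WT, so the direction of every change rests on the labels. The RNAi vein libraries stood apart from each other, with 14.9% of genes more than 2-fold apart, against 0.45% between the WT vein libraries, 2.36% between the RNAi fruit libraries and 1.59% between the WT fruit libraries. Each vein change of the 4 genes is therefore also given without each RNAi vein library. Such a fit leaves 1 library in that group, so the gap between the pair no longer enters the spread. A call gained or kept in this way is not added support. The number of calls over all genes also moved with the library left out. A shift in the calls of a list given below need therefore not be particular to its genes. The phloem and xylem marker genes were detected in every library, with 0 of 4 genes at 0 reads in either list, so both tissues were sampled.

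**Figure D1:**
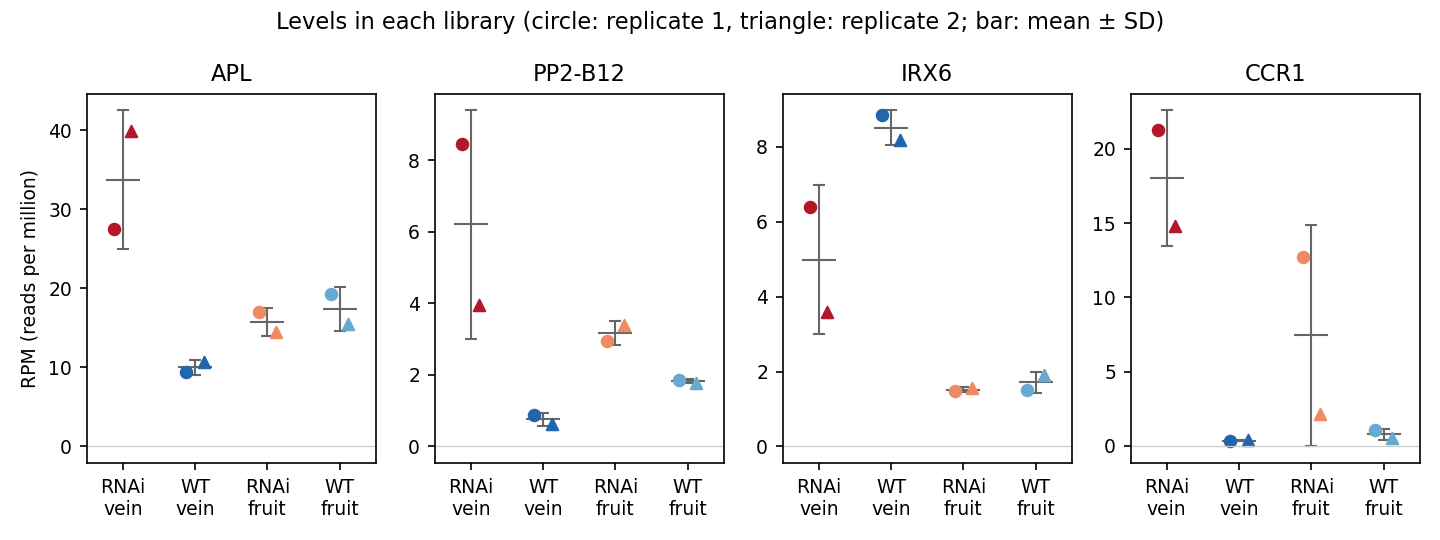
RPM of the 4 genes in each of the 8 libraries, by group, with 1 panel per gene and its own linear axis from 0. Circles are replicate 1 and triangles replicate 2, and bars give the mean ± SD of 2 libraries. *APL*, *PP2-B12* and *CCR1* are highest in RNAi vein, while *IRX6* is highest in WT vein, and *CCR1* splits between the RNAi fruit libraries, at 12.7 and 2.16 RPM.

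In vein, both phloem genes and *CCR1* were higher in RNAi than in WT, and *IRX6* was lower without passing the test. Genes were called at a Benjamini-Hochberg adjusted p under 0.05 over all 17778 genes tested, by limma, if they also changed 2-fold or more. By that rule 3 of the 4 genes were called higher and 0 lower, beside 19.2% of all genes called, 14% higher and 5.14% lower. In all 4 genes the RNAi and WT vein libraries did not overlap, as in 67.2% of all genes (45.1% with RNAi higher and 22.1% with RNAi lower). In fruit 0 of the 4 genes were called, beside 0.472% of all genes (0.422% higher and 0.0506% lower). Of the 4, only *CCR1* reached an unadjusted p under 0.05, a limit that 1210 of all 17778 genes passed there. The fruit counts at this unadjusted limit for the lists below are to be read against the same background. With 2 libraries a group, an exact permutation test reaches no two-sided p below 0.333, and all p values given come from limma (two-sided), which borrows information across genes. The study calls the replicates biological, while the labels do not say whether they came from separate plantings, and the p values cover the spread between these libraries.

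*APL*, the phloem identity factor, was at 27.5 and 39.9 RPM in RNAi vein and 9.34 and 10.7 RPM in WT vein. Both RNAi libraries lay well above both WT libraries, by more than the gap of 1.45-fold between the RNAi replicates. In 45.1% of all genes both RNAi vein libraries were above both WT vein libraries. RNAi vein differed from WT vein by 1.68 on the log2 scale (standard error 0.22, adjusted p = 0.0024), or 3.20-fold on the log2(RPM + 0.5) scale used throughout. It was 1.95 without RNAi vein replicate 1 and 1.42 without RNAi vein replicate 2, and the call held without any one of the 8 libraries. In bulk tissue, more cells of a type and more RNA per cell cannot be told apart, here as for each gene that follows.

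In fruit *APL* had 17.0 and 14.5 RPM in RNAi and 19.3 and 15.4 RPM in WT. These libraries overlapped, and the log2 fold change was -0.13 (standard error 0.22, 95% confidence interval -0.66 to 0.40, adjusted p = 1). The change in vein exceeded that in fruit by 1.81 on the log2 scale (standard error 0.32, adjusted p = 0.0224). *APL* was the only 1 of the 4 genes called for this difference, which 11.4% of all genes passed (8.27% upward and 3.16% downward). Without 1 library the difference ranged between 1.55 and 2.08, and the call was lost without any of the 6 libraries outside RNAi vein. In those 6 fits the calls over all genes fell steeply too, so the loss was not particular to *APL*. Leaving out an RNAi vein library takes the most discordant pair out of the spread.

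The 4 groups of *APL* ordered as RNAi vein at 33.7 ± 8.78 RPM, WT fruit at 17.4 ± 2.72 RPM, RNAi fruit at 15.8 ± 1.79 RPM and WT vein at 10.0 ± 0.961 RPM (SD, n = 2 each). The fruit groups, neighbours in that order, differed by less than their spread. Vein and fruit stood in opposite order in the genotypes, with *APL* higher in vein than in fruit in RNAi plants (log2 fold change 1.05, standard error 0.22, adjusted p = 0.0107) and lower in vein than in fruit in WT (-0.76, standard error 0.22, adjusted p = 0.0251), the last below the 2-fold requirement. In WT the change between vein and fruit had a median of -0.51 (log2) over all genes on the RPM scale, against -0.09 with TMM factors, which rest on the bulk of genes. With TMM factors *APL* in WT changed by -0.34 (adjusted p = 0.319).

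*PP2-B12*, the phloem lectin of the B type, was at 8.46 and 3.95 RPM in RNAi vein and 0.885 and 0.627 RPM in WT vein. In reads these values are 156 and 75 in RNAi and 16 and 13 in WT. Both RNAi libraries lay above both WT libraries, as in 45.1% of all genes, while the RNAi libraries were themselves 2.14-fold apart. RNAi vein differed from WT vein by 2.34 on the log2 scale (standard error 0.34, adjusted p = 0.00343), at 1.83 without RNAi vein replicate 1 and 2.84 without RNAi vein replicate 2, and again called without any one library.

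In fruit *PP2-B12* had 2.94 and 3.40 RPM in RNAi and 1.87 and 1.78 RPM in WT. Here too both RNAi libraries were the higher ones, as in 23.2% of all genes. The log2 fold change of 0.66 did not pass the test (standard error 0.34, adjusted p = 0.9), with a 95% confidence interval of -0.17 to 1.48. The vein change exceeded the fruit change by 1.68 (standard error 0.49), which was not called (adjusted p = 0.069). It was 1.18 without RNAi vein replicate 1 and 2.19 without RNAi vein replicate 2. In order of level, RNAi vein at 6.21 ± 3.19 RPM and RNAi fruit at 3.17 ± 0.330 RPM came first, then WT fruit at 1.83 ± 0.0581 RPM and WT vein at 0.756 ± 0.182 RPM (SD, n = 2 each). RNAi vein and RNAi fruit, neighbours in that order, differed by less than the SD of RNAi vein.

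**Figure D2:**
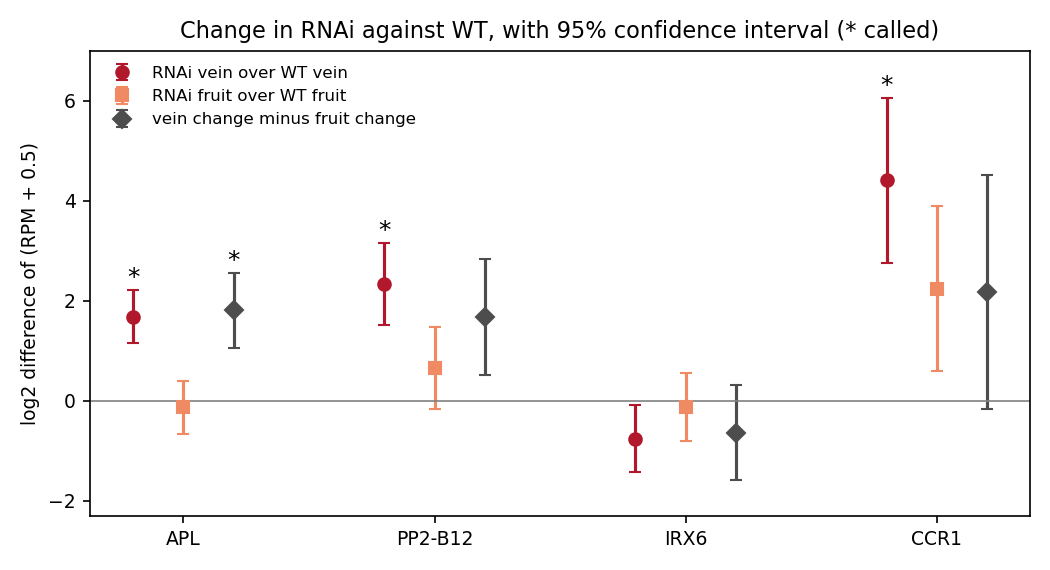
Change of the 4 genes in RNAi against WT on the log2(RPM + 0.5) scale, in vein (circles), in fruit (squares) and as the vein change minus the fruit change (diamonds), with 95% confidence intervals from limma. Stars mark what was called. *APL* has a vein change of 1.68 beside a fruit change of -0.13, while *CCR1* has changes of 4.41 and 2.24 with wide intervals.

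The other phloem genes of the study's vascular table, which the study likewise picked on the vein comparison, did not move as a block. Of its 9 other phloem genes, 6 were called higher and 2 lower in RNAi vein, with a median log2 fold change of 1.45 beside 0.20 over all genes. Without WT vein replicate 1, 3 were called higher and 2 lower. In fruit 0 of 9 were called, 1 had an unadjusted p under 0.05, edgeR's quasi-likelihood test called 0, and the median was 0.01 beside -0.01 over all genes. Over all genes in fruit, that test called 59 higher and 6 lower. The exact test of edgeR called 475 and 86, and DESeq2 326 and 36. Neither this list nor those that follow were run with the exact test or DESeq2. The 6 that rose in vein were 3 further PP2 genes, a sieve element occlusion gene and 2 callose synthase genes, which make the polymer that lines and plugs sieve pores.

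*Callose synthase 1* (Csa7G429550) had 455 and 220 RPM in RNAi vein and 54.5 and 63.0 RPM in WT vein (log2 fold change 2.42, adjusted p = 0.00311). *PP2-A14* (Csa5G173520), a PP2 lectin of the A type, had 37.4 and 11.5 RPM in RNAi vein and 3.15 and 4.48 RPM in WT vein (log2 fold change 2.33, adjusted p = 0.0215). Both were far apart between the RNAi vein libraries. The decreases were those of a second *SEOR1* gene, for the filament protein of sieve elements, and of a *PDCB3* gene, for a protein that binds callose at plasmodesmata.

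The *SEOR1* gene Csa2G193340 had 23.5 and 19.5 RPM in RNAi vein and 109 and 89.4 RPM in WT vein (log2 fold change -2.18, adjusted p = 0.000539), while the *SEOR1* gene Csa1G002870 changed by 1.45 (adjusted p = 0.00664). The *PDCB3* gene Csa1G013210 had 84.0 and 86.5 RPM in RNAi vein and 218 and 216 RPM in WT vein (log2 fold change -1.34, adjusted p = 0.000631). The other *PDCB3* gene, Csa5G606660, had 115 and 175 RPM in RNAi vein and 258 and 311 RPM in WT vein (log2 fold change -0.998, adjusted p = 0.0151), just under 2-fold and so not called. The *SEOR1* genes thus went opposite ways, while both *PDCB3* genes were lower in RNAi vein. The summed level of the 4 phloem marker genes was 102 and 85.7 RPM in RNAi vein and 130 and 111 RPM in WT vein. That sum was lower in RNAi vein through 1 gene alone, the abundant Csa2G193340, which was called lower. The other 3 of its 4 genes were called higher, as were *APL* and *PP2-B12*. The 4 marker genes come from the study's vascular table, picked on these same vein libraries, so the direction of their sum is not independent evidence. The part of phloem content in the changes of *APL* and *PP2-B12* was not tested.

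A list of callose synthase genes that was not picked by expression, from the gene ontology lists of the study, held 14 tested genes, of which 7 were called higher and 0 lower in RNAi vein (median 0.73), beside 14% and 5.14% of all genes and a median of 0.20. Among those called higher are Csa7G429550 and Csa2G302250, already counted above from the study's vascular table, which was picked on the vein comparison. With TMM factors 5 were called higher, beside 1817 of the 17778 genes, and 8 of the 14 rather than 13 had a positive change, and without WT vein replicate 1, 3 were called. Csa4G621160 rose most, at 170 and 180 RPM in RNAi vein and 24.5 and 24.1 RPM in WT vein (log2 fold change 2.82, adjusted p = 0.000189). It was followed by Csa7G429560 at 2.76 (adjusted p = 0.0144), whose RNAi libraries lay at 39.5 and 10.0 RPM. In fruit 0 of 14 met the calling rule and 1, Csa4G621160, had an adjusted p of 0.045 at 46.8 and 44.1 RPM in RNAi and 24.0 and 26.6 RPM in WT, below 2-fold.

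**Figure D3:**
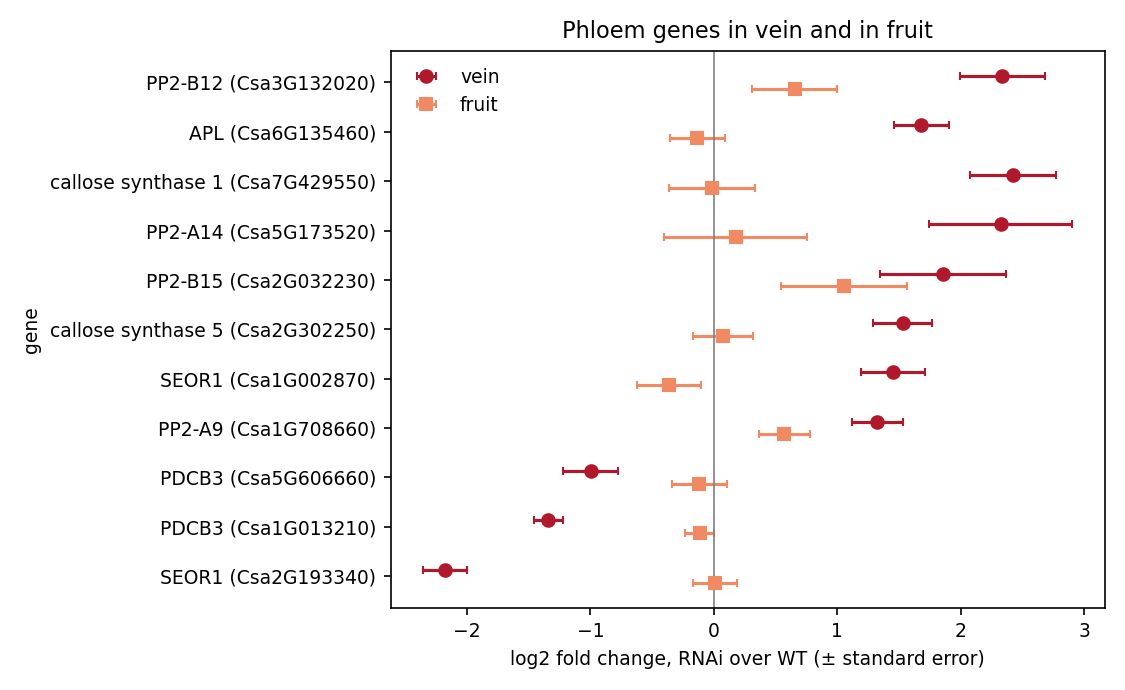
Log2 fold change of RNAi over WT in vein (circles) and in fruit (squares) for *PP2-B12*, *APL* and the 9 other phloem genes of the study's table, with standard errors from limma. In vein the genes spread between -2.18 and 2.42, and in fruit between -0.36 and 1.05.

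*IRX6*, the COBRA-like gene of secondary walls, went the other way from the rest. It was at 6.40 and 3.58 RPM in RNAi vein and 8.85 and 8.20 RPM in WT vein, or 118 and 68 reads in RNAi and 160 and 170 reads in WT. Both RNAi libraries lay below both WT libraries, as in 22.1% of all genes, and the RNAi libraries were 1.79-fold apart. The log2 fold change of -0.76 (standard error 0.28, 95% confidence interval -1.44 to -0.09) did not pass the test (adjusted p = 0.0745). It was -1.14 without RNAi vein replicate 1 and -0.39 without RNAi vein replicate 2.

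The call on *IRX6* depended on the scaling. Over all genes the median change in vein (log2) was 0.20 on the RPM scale and -0.04 with TMM factors. With TMM factors *IRX6* changed by -1.01 and was called (adjusted p = 0.0218). On that scale 1817 genes were called higher and 1485 lower in vein, against 2494 and 913 on the RPM scale. It was also called lower with quantile normalization within tissues (-1.14), by DESeq2 (-1.07) and by both tests of edgeR, quasi-likelihood and exact (-1.05 each).

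Between tissues *IRX6* was a vein gene, in comparisons that share their libraries with those of the genotypes. In fruit it had 1.47 and 1.56 RPM in RNAi and 1.50 and 1.91 RPM in WT, which overlapped (log2 fold change -0.13, standard error 0.28, adjusted p = 1). WT vein exceeded WT fruit by 2.04 on the log2 scale (standard error 0.28, adjusted p = 0.00172), and RNAi vein exceeded RNAi fruit by 1.40 (standard error 0.28, adjusted p = 0.00914). *IRX6* was the only 1 of the 4 genes called higher in WT vein than in WT fruit, beside 30.2% of all genes called and 7.45% called higher, and 0 of the 4 were called lower. In RNAi plants *IRX6* and *APL* were called higher in vein than in fruit, 2 of the 4 genes, beside 22.5% of all genes called and 8.36% called higher. The order of levels was WT vein at 8.52 ± 0.460 RPM, RNAi vein at 4.99 ± 1.99 RPM, WT fruit at 1.71 ± 0.292 RPM and RNAi fruit at 1.52 ± 0.0673 RPM (SD, n = 2 each), with the fruit groups within their spread. The change of *IRX6* in vein minus that in fruit was -0.64 (standard error 0.40, adjusted p = 0.318) and was not called.

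The secondary wall genes of the study's table of changed genes were lower in RNAi vein too. They are the cellulose synthases *CESA7* (Csa2G070320) and *CESA8* (Csa1G470270), the laccases *LAC4* (Csa3G732490) and *LAC17* (Csa1G085370), which link lignin monomers, and *FLA11* (Csa1G085380), a fasciclin-like arabinogalactan protein of fibres and vessels. The changes of all 5 were at -0.99 to -0.82 (median -0.89) with adjusted p of 0.0038 to 0.0293, and 0 of 5 were called, since each change stayed under 2-fold. With TMM factors and with edgeR's quasi-likelihood test 5 of 5 were called lower, with medians of -1.15 and -1.15. Over all 17778 genes these settings called 1485 and 1460 lower. The table holds genes changed in these same vein libraries, so the count reflects how they were picked. Without RNAi vein replicate 1, 4 of 5 were called lower, and 0 without any one of the other libraries.

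*CESA7* had 26.8 and 22.4 RPM in RNAi vein and 48.2 and 46.1 RPM in WT vein (log2 fold change -0.93, adjusted p = 0.0038). *FLA11* had 55.0 and 28.9 RPM in RNAi vein and 77.6 and 82.5 RPM in WT vein (log2 fold change -0.99, adjusted p = 0.0293). As with *IRX6*, RNAi vein replicate 2 was the lower of its pair in each of these genes. Of all genes, 62.8% were higher in RNAi vein replicate 1 than in replicate 2. In fruit 0 of 5 were called (unadjusted p under 0.05 in 0 by limma, and 0 called by edgeR's quasi-likelihood test), with changes of -0.27 to -0.04, and in WT all 5 were called higher in vein than in fruit (median 2.04).

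The 4 xylem marker genes are among these, and since they come from a table of genes changed in these same vein libraries, the direction of their sum is not independent evidence. Their summed level was 151 and 103 RPM in RNAi vein and 237 and 237 RPM in WT vein. It was thus lower in RNAi vein than in WT vein. Within RNAi vein it was higher in replicate 1, as were *IRX6* and 62.8% of all genes. *IRX6* amounted to 4.23% and 3.48% of that sum in RNAi vein and 3.74% and 3.46% in WT vein, ranges that overlap, and to 2.20% and 2.32% in RNAi fruit and 2.10% and 2.60% in WT fruit. RPM takes no account of gene length, so only the changes of this ratio between libraries can be read.

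**Figure D4:**
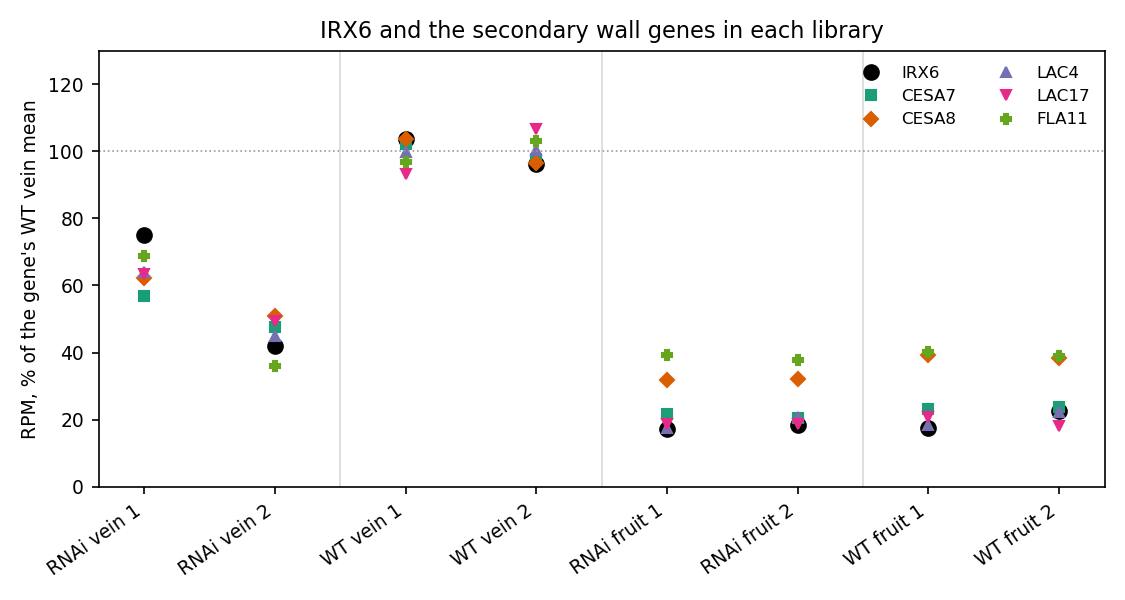
RPM of *IRX6* and of the 5 secondary wall genes in each library, as a percent of the gene's mean in WT vein (dotted line at 100%). In RNAi vein *IRX6* stands at 75.1% and 42.0% and the others at 56.8% to 68.7% in replicate 1 and 36.1% to 51.0% in replicate 2, and in all fruit libraries the 6 genes lie at 40.0% or below.

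Not all wall genes were lower in RNAi vein. The other COBRA family genes of the tables both rose. The COBRA-like gene Csa4G129050 had 16.1 and 14.6 RPM in RNAi vein and 2.16 and 2.27 RPM in WT vein (log2 fold change 2.55, adjusted p = 0.000274). *COBRA-like 7* (Csa3G165620) had 85.4 and 41.9 RPM in RNAi vein and 25.5 and 23.3 RPM in WT vein (1.28, adjusted p = 0.0259). Only 1 of both genes was called with quantile normalization and without RNAi vein replicate 1, or without any one of the WT libraries.

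Of the 6 cell wall genes of the study's table other than *IRX6*, the first of these COBRA genes included, 4 were called higher and 2 lower in vein (median 2.67). Over all genes 14% were called higher and 5.14% lower, with a median of 0.20. The study picked these genes on the vein comparison, so the count in vein reflects that choice. In fruit 0 of the 6 were called (median 0.67, unadjusted p under 0.05 in 2, and 0 called by edgeR's quasi-likelihood test). The largest rise was that of *CSLB3* (Csa2G416190), a cellulose synthase-like gene, at 131 and 146 RPM in RNAi vein and 10.0 and 13.2 RPM in WT vein (3.53, adjusted p = 0.000213). Its namesake Csa2G416170 followed at 2.92 (adjusted p = 0.00153). *CSLD5* (Csa4G002500) fell by 1.59 on the log2 scale (adjusted p = 0.0116) and *CSLB1* (Csa7G041990) fell by 1.14 (adjusted p = 0.0265). Without either WT vein library 0 genes of this list were called lower, and 1 without RNAi vein replicate 1 or either WT fruit library.

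A gene ontology list of structural wall genes, not picked by expression, had 2 of its 8 tested genes called higher in RNAi vein and 0 lower (median 0.70), beside 14% and 5.14% of all genes and a median of 0.20. In fruit 0 were called (unadjusted p under 0.05 in 2, 0 called by edgeR's quasi-likelihood test). The genes called in vein were Csa7G312940 (4.99, adjusted p = 0.0191) and Csa6G058200 (4.56, adjusted p = 0.0173). Csa7G312940 had 590 and 43.0 RPM in RNAi vein and 3.48 and 5.93 RPM in WT vein, and Csa6G058200 had 467 and 54.4 RPM in RNAi vein and 4.98 and 7.95 RPM in WT vein. Both thus differed several-fold between the RNAi vein libraries. The calls of this list changed with the library left out, as did those over all genes.

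*CCR1* had the largest change of the 4 genes. It was at 21.3 and 14.8 RPM in RNAi vein (392 and 281 reads) and 0.332 and 0.386 RPM in WT vein (6 and 8 reads). The WT counts allow 0.122 to 0.722 RPM and 0.167 to 0.760 RPM by their exact Poisson 95% intervals, which cover counting error only, so both RNAi libraries lay far above. RNAi vein differed from WT vein by 4.41 on the log2 scale (standard error 0.69, 95% confidence interval 2.76 to 6.06, adjusted p = 0.00424), and 4.16 and 4.66 without RNAi vein replicates 1 and 2. The call held without any one of the 8 libraries.

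In fruit the RNAi libraries disagreed. *CCR1* had 12.7 and 2.16 RPM in RNAi fruit (234 and 47 reads) and 1.05 and 0.522 RPM in WT fruit (23 and 12 reads). Both RNAi libraries lay above both WT libraries, but the RNAi libraries were 5.89-fold apart, which their counting intervals of 11.1 to 14.5 and 1.59 to 2.87 RPM do not cover. The log2 fold change of 2.24 (standard error 0.69, 95% confidence interval 0.59 to 3.89) was not called (adjusted p = 0.463). It was 1.08 without RNAi fruit replicate 1 and 3.40 without RNAi fruit replicate 2. On the recovered reads edgeR's exact test (3.27, adjusted p = 0.0132) and DESeq2 (3.24, adjusted p = 0.00393) called it, and edgeR's quasi-likelihood test did not, so the call in fruit depended on the tool.

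The vein change of *CCR1* minus its fruit change was 2.17 (standard error 0.98, adjusted p = 0.184), so a difference between the tissues was not shown. It was 3.33 without RNAi fruit replicate 1 (adjusted p = 0.0548) and 1.02 without RNAi fruit replicate 2, again not called. Its levels ordered as RNAi vein at 18.0 ± 4.57 RPM, RNAi fruit at 7.44 ± 7.47 RPM, WT fruit at 0.785 ± 0.371 RPM and WT vein at 0.359 ± 0.0382 RPM (SD, n = 2 each). RNAi fruit and WT fruit, neighbours in that order, differed by less than the SD of RNAi fruit. Vein and fruit were not called different, in RNAi plants (1.62, standard error 0.69, adjusted p = 0.104) or in WT (-0.55, standard error 0.69, adjusted p = 0.517).

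The lists hold 3 further genes annotated as cinnamoyl-CoA reductase. Csa3G716870 had 4.99 and 6.11 RPM in RNAi vein and 0.0553 and 0.145 RPM in WT vein, where it had 3 reads or fewer, and was called higher (adjusted p = 0.00665). Csa3G716370 had 4.18 and 5.48 RPM in RNAi vein and 0.0553 and 0 RPM in WT vein, likewise called (adjusted p = 0.00954). Csa3G717870 stood apart from both, with 0 reads in each RNAi vein library and 7 and 8 reads in the WT vein libraries. With the RNAi libraries set to a floor of 3 reads it was 2.41-fold lower, which leaves out the counting error of the WT reads. Its fitted change of -0.83 was below 2-fold and not called. Reads of close copies can be split between them in counting, and how shared reads were treated is not given in the sources used here, so the shares of single CCR and PAL genes are uncertain.

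In fruit Csa3G716870 had 3.21 and 0.414 RPM in RNAi and 0.0910 and 0.0435 RPM in WT, and Csa3G716370 had 3.37 and 0.322 RPM in RNAi and 0.182 and 0.0870 RPM in WT. Neither was called (adjusted p = 0.577 and 0.763). Both repeated the split of *CCR1*, with RNAi fruit replicate 1 far above replicate 2.

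The split ran through the phenylpropanoid genes. Of 14 genes (9 PAL genes, 3 CCR genes other than *CCR1*, 1 *CCoAOMT* and 1 *CAD9*), 11 were higher in replicate 1 than in replicate 2 of RNAi fruit, at a median of 3.02-fold, where 36.7% of all genes were higher in replicate 1. In WT fruit 11 of the 14 were also higher in replicate 1, at a median of 1.34-fold, beside 54.3% of all genes. The part of this library difference in the fruit change of *CCR1* was not tested.

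The phenylpropanoid list of the study's table, 13 genes without Csa3G716870, had 12 called higher and 0 lower in RNAi vein, with a median of 3.33 beside 0.20 over all genes. That table holds changed genes only, so the count reflects how they were picked. Setting Csa3G717870 to the floor of 3 reads cannot move the median of this list, since it is already the lowest gene. In fruit all 13 had a positive change (median 1.73), and 1 was called, *CCoAOMT* (Csa5G589940), which methylates lignin precursors. It had 80.6 and 113 RPM in RNAi fruit and 24.4 and 21.6 RPM in WT fruit (2.03, adjusted p = 0.0193), and 125 and 144 RPM in RNAi vein and 36.8 and 31.9 RPM in WT vein (1.95, adjusted p = 0.00084). The call in fruit was lost without any one of the WT vein, RNAi fruit or WT fruit libraries.

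The 9 PAL genes, which open the pathway, all rose in vein, by 2.39 to 5.44 on the log2 scale, and 3 of them changed more than *CCR1*. Csa6G445780 had 28.7 and 25.0 RPM in RNAi vein and 0.221 and 0.0482 RPM in WT vein (5.44, adjusted p = 0.00386), and Csa6G446290 had 40.1 and 32.6 RPM in RNAi vein and 0.332 and 0.482 RPM in WT vein (5.34, adjusted p = 0.000914). Summed over the 9 PAL genes, the level was 328 and 358 RPM in RNAi vein, 29.8 and 39.6 RPM in WT vein, 117 and 61.3 RPM in RNAi fruit and 38.5 and 34.6 RPM in WT fruit. The fitted changes of genes with only a few WT reads depend on the pseudocount. RNAi was the higher genotype in both tissues, and RNAi fruit replicate 1 the higher of its pair.

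**Figure D5:**
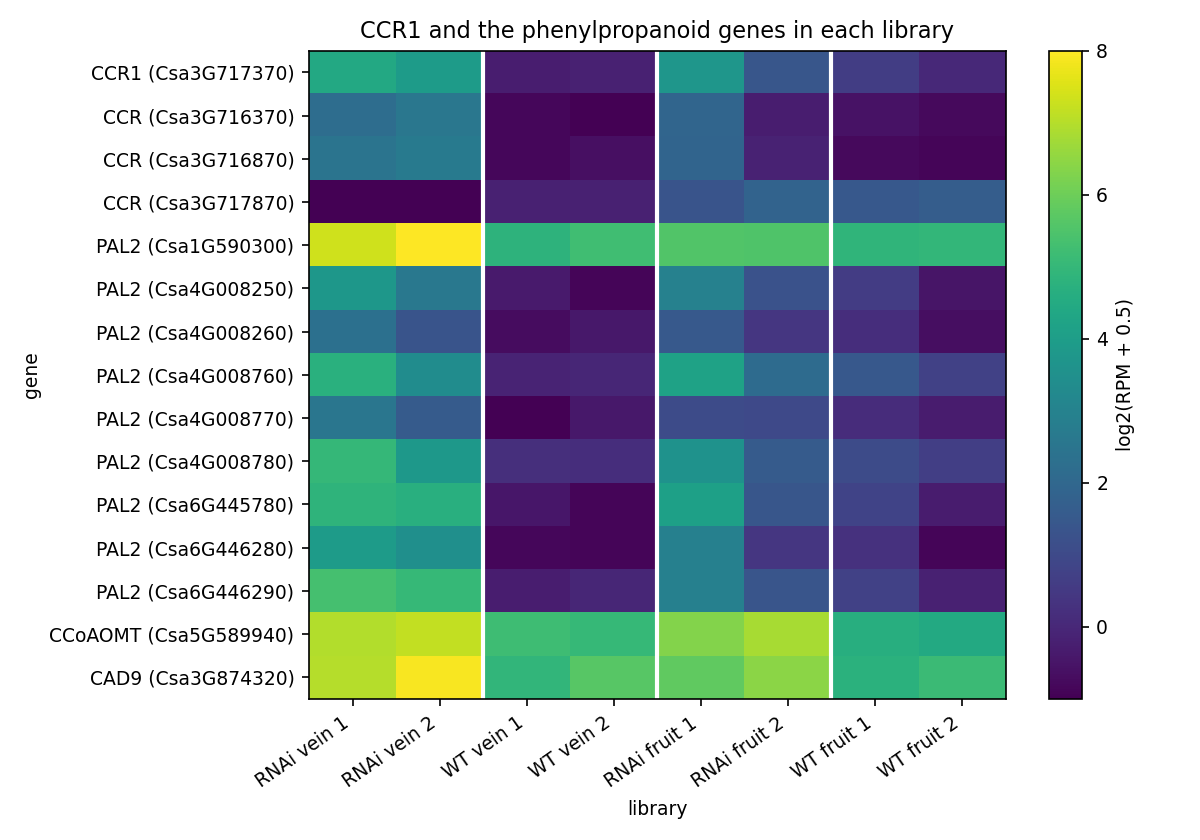
Log2(RPM + 0.5) of *CCR1*, 3 further CCR genes, 9 PAL genes, *CCoAOMT* and *CAD9* in each library, as a colour from dark (low) to yellow (high), with white lines between the groups. *CCR1* and most PAL genes are bright in both RNAi vein libraries and dark in both WT vein libraries, and in RNAi fruit brighter in replicate 1 (*CCR1* at 12.7 RPM) than in replicate 2 (2.16 RPM). Levels of different genes are not comparable, as RPM takes no account of length.

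The genes of the study's vascular table grouped here as lignin genes did not share one direction. They include the CCR-like genes Csa6G091870 and Csa3G598910, whose place among lignin genes is uncertain. Of the 6 other than *CCR1*, 2 were called higher and 2 lower in RNAi vein, beside 14% and 5.14% of all genes. Csa6G091870 was among those called lower. The study picked these genes on the vein comparison. The median was 0.02, and -0.20 with TMM factors, with 3 called lower. Called higher were 1 without either WT vein library and 3 without RNAi vein replicate 2, and 3 were called lower without RNAi vein replicate 1. In fruit 0 were called (unadjusted p under 0.05 in 2, 0 called by edgeR's quasi-likelihood test). The called rises in vein were those of the CCR gene Csa3G716870 (3.33) and *laccase 11* (Csa4G046770, 1.46, adjusted p = 0.0162). *Laccase 3* (Csa1G533470) fell by 1.64 (adjusted p = 0.0016), at 0.217 and 0.316 RPM in RNAi vein and 1.71 and 2.07 RPM in WT vein.

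*Laccase 17* (Csa3G734120), named after its values were seen, had 5.59 and 1.74 RPM in RNAi vein and 10.3 and 8.53 RPM in WT vein and was not called (-1.42, adjusted p = 0.0527).

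The name of 2 more genes of that list is CCR-like, a name that in *Arabidopsis* belongs to a clock-controlled gene unrelated to cinnamoyl-CoA reductase. The gene Csa6G091870 had 32.0 and 20.5 RPM in RNAi vein and 99.0 and 69.0 RPM in WT vein (-1.67, adjusted p = 0.0051), and in fruit 27.2 and 29.8 RPM in RNAi and 87.9 and 64.0 RPM in WT (-1.38, adjusted p = 0.158). The gene Csa3G598910 had 151 and 13.5 RPM in RNAi vein and 5.36 and 3.18 RPM in WT vein (3.31, adjusted p = 0.128), and 2.18 and 48.4 RPM in RNAi fruit and 67.9 and 63.3 RPM in WT fruit. Its RNAi libraries differed many-fold in both tissues, and it was not called.

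The gene ontology list of NADP-dependent alcohol dehydrogenases, where CCR enzymes are filed, had 11 tested genes apart from *CCR1*, with 2 called higher and 2 lower in RNAi vein and a median of -0.24. Over all genes 14% were called higher and 5.14% lower, with a median of 0.20. The calls of this list changed with the library left out, and so did those over all genes. In fruit 0 were called (unadjusted p under 0.05 in 2, 0 called by edgeR's quasi-likelihood test). Beside Csa3G716870, Csa4G043870 rose (1.62, adjusted p = 0.00437). Csa1G043150 fell by 1.79 (adjusted p = 0.00126), at 84.7 and 95.1 RPM in RNAi vein and 360 and 270 RPM in WT vein, and Csa3G221780 fell by 1.65 (adjusted p = 0.00915).

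Across the 8 libraries each gene had its own nearest neighbours among the 17549 genes compared, by Pearson's r of log2(RPM + 0.5), given as a description since the libraries of a group share tissue and genotype. *IRX6* was closest to Csa1G002900, which has no name in the tables (r = 0.995), *LAC4* (0.995) and Csa6G361260 (0.991). *LAC4* thus ranked 2 of all genes, *CESA7* ranked 8 (0.985), *LAC17* ranked 14 (0.982), *CESA8* ranked 42 (0.969) and *FLA11* ranked 265 (0.909). *CCR1* was closest to Csa1G145980, annotated as arogenate dehydratase 6, whose enzyme class makes phenylalanine (0.997), Csa2G351540, a dnaJ-related chaperone (0.997), and Csa6G425720, annotated as the transcription factor NAC90 (0.997).

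The PAL gene Csa6G445780 ranked 4 for *CCR1* (0.995). The neighbour Csa6G425720 had 46.4 and 23.8 RPM in RNAi vein, 0.221 and 0.193 RPM in WT vein, 21.6 and 1.75 RPM in RNAi fruit and 0.683 and 0.131 RPM in WT fruit. In both genes the RNAi vein libraries and RNAi fruit replicate 1 were the highest. *APL* was closest to Csa2G367210, annotated to the lysine decarboxylase family (0.987), Csa7G234700 (0.984) and Csa2G378010 (0.982). *PP2-B12* was closest to Csa3G878200 (0.996), Csa4G538590 (0.995) and Csa6G185260 (0.994), none of which is named in the tables.

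Among themselves *APL*, *PP2-B12* and *CCR1* had r of 0.802 (*APL* and *CCR1*), 0.783 (*APL* and *PP2-B12*) and 0.874 (*PP2-B12* and *CCR1*) over the 8 libraries. *IRX6* had r between -0.25 and -0.13 with the others. Many genes reached such values, with 311 genes over 0.9 for *APL*, 1156 for *PP2-B12*, 300 for *IRX6* and 579 for *CCR1*.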

How the data were processed

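RNA of 8 libraries, 2 in each of 4 groups, was sequenced by the authors with a directional kit, mapped with TopHat and counted per gene with HTSeq-count (versions and handling of shared reads not given in the sources used here). The authors deposited RPM, reads scaled by the total counted on genes, for 17783 genes. In each library 100% of values were whole multiples of 1 read (tolerance 0.05 of a read), so reads could be recovered, between 18088985 and 22979345 per library.

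Here log2(RPM + 0.5) was fitted with limma 3.58.1 in R 4.3.3 (trended empirical Bayes, two-sided, 1 mean per group over 8 libraries) for 17778 genes (1 RPM or more in 2 or more libraries). Genes were called at an adjusted p under 0.05 (Benjamini-Hochberg) and at least 2-fold, without the fold requirement for the tissue difference. The fit holds 1 spread per gene for all groups, whereas the RNAi vein pair was the most discordant, so vein standard errors may be too small. The fit was tested on simulated data that also gave each gene 1 spread for all libraries, so that test cannot address this concern.

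The alternatives were pseudocounts of 0.1 and 1, no filter, a filter at a mean of 5 RPM, TMM factors, quantile normalization within a tissue, edgeR 4.0.16 and DESeq2 1.42.0 on recovered reads, a separate fit per pair of groups, the replicate number as a block, and leaving out each library. A block with crossed RNAi vein numbers was added after seeing the data.

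The 4 genes and the lists were chosen with earlier results of these data known. The text names the 4 genes, from each list the 2 largest called rises and falls in vein and every gene called in fruit, all CCR, COBRA family and secondary wall genes, and for each of the 4 genes the 3 genes with the highest r. Gene names are those of *Arabidopsis* matches in the study's tables, of which the table of changed genes was held in part. Oligonucleotides come from the study's primer table.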

Additional observations from a re-analysis of the deposited data

Results flagged for a closer look

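The change of *APL* in RNAi against WT differed between the tissues. It was larger in vein than in fruit by 1.81 on the log2 scale (limma, adjusted p = 0.0224), with the RNAi libraries at 27.5 and 39.9 RPM and the WT libraries at 9.34 and 10.7 RPM in vein, and at 17.0 and 14.5 RPM in RNAi and 19.3 and 15.4 RPM in WT in fruit. This difference was not called without either WT vein library, either RNAi fruit library or either WT fruit library. In each of these fits the calls over all genes fell steeply too.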

How the results depend on the processing

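Of 370 values of the 4 genes under the alternatives, 340 kept their direction and their side of the threshold. The vein calls of *APL*, *PP2-B12* and *CCR1* held under each alternative that gave a value. *IRX6* in vein was called at -1.01 with TMM factors, -1.14 with quantile normalization, -1.05 with edgeR's quasi-likelihood test, -1.05 with its exact test and -1.07 with DESeq2. *CCR1* in fruit was called at 3.27 by the exact test and 3.24 by DESeq2. *PP2-B12* was called in WT vein against WT fruit at a pseudocount of 0.1 (-1.19), in RNAi vein against RNAi fruit by the quasi-likelihood test (1.12) and DESeq2 (1.20), and for the tissue difference by DESeq2 (1.97). A separate fit per pair of groups lost the calls between RNAi vein and RNAi fruit of *APL* (1.05) and *IRX6* (1.40). Beyond pseudocount, scaling and number of samples, the cause of these shifts was not tested.

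Leaving out each library moved some calls. In fruit the change of *APL* ranged between -0.29 and 0.023 and that of *IRX6* between -0.26 and 0.009, the positive ends without WT fruit replicates 1 and 2. The vein change of *IRX6* ranged between -1.14 and -0.39. The tissue difference ranged between 1.55 and 2.08 for *APL*, 1.18 and 2.19 for *PP2-B12*, 1.02 and 3.33 for *CCR1*, and -1.02 and -0.26 for *IRX6*. RNAi vein against RNAi fruit ranged between 0.79 and 1.32 for *APL*, 0.28 and 1.29 for *PP2-B12*, 1.02 and 1.78 for *IRX6*, and 0.47 and 2.78 for *CCR1*. *APL* lost that call without replicate 2 of RNAi vein or of RNAi fruit and *IRX6* without RNAi fruit replicate 1. The change was largest without RNAi vein replicate 2 for *PP2-B12* and without RNAi fruit replicate 1 for *CCR1*. Each of these fits leaves the gap between that pair out of the spread.

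The number of genes called in vein was 3407, at 2163 with a separate fit and 2106 to 5042 without 1 library (lowest without WT vein replicate 1, highest without RNAi vein replicate 2). In fruit it was 84, at 561 with the exact test, 362 with DESeq2, 218 with a separate fit and 0 to 357 without 1 library. For the tissue difference it was 2032, at 3393 with DESeq2 and 0 to 8195 without 1 library. The 0 arose in fruit without RNAi fruit replicate 1 (698 genes at an unadjusted p under 0.05) and without either WT fruit library (865 and 650), and in the tissue difference without either WT fruit library (3684 and 4079) or either WT vein library (3641 and 4065). The share of calls that were higher was 73.2% on the RPM scale and 55% with TMM factors in vein, 72.3% and 50.1% for the tissue difference, 24.7% and 50% between WT vein and WT fruit, and 37.2% and 47.1% between RNAi vein and RNAi fruit.

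The replicate numbers carry no pairing in the labels, and deviations of same-numbered libraries correlated at -0.11 between RNAi and WT vein, 0.14 between RNAi and WT fruit and 0.22 between RNAi vein and RNAi fruit, with the other 3 pairs of groups between -0.017 and 0.02. With the replicate number as a block 44 genes were called in fruit and 1071 for the tissue difference, and no call of the 4 genes changed. With the RNAi vein numbers crossed the fruit count was 21 and that of the tissue difference 1355. Quantile normalization gave no value across tissues, the exact test and the separate fit none for the tissue difference, and the filter at 5 RPM left out *PP2-B12* and *IRX6*. Depth limits *CCR1* in WT vein, at 6 and 8 reads.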
